A study of Mus musculus with 12 samples.

Results

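The 10 genes described here encode the mucin of the colon's mucus, proteins secreted with it and the factors that make a cell a goblet cell: Muc2, Clca1, Fcgbp, Zg16, Tff3, Agr2, Spdef, Atoh1, Spink4 and Ang4. They were taken by symbol from the 54532 genes of each count table. RNA of colon tissue from male C57BL/6 mice was sequenced, 3 libraries in each of 4 groups drawn from 8 mice a group that arrived at 6 weeks of age and adapted for 1 week. The Con group had no DSS, and the labels call it untreated where the methods give it vehicle by gavage. The DSS group drank 3% (w/v) dextran sulfate sodium, a polymer that injures the colonic epithelium, for 5 days. By the methods the DSS group also had vehicle by gavage. Both other groups drank the same DSS and also had gavage of ursolic acid (UA), a triterpenoid from plants, at a dose of 200 mg/kg. For UA+DSS the gavage started 1 day before DSS and lasted 7 days, and for DSS+UA it started 3 days after and lasted 4 days. These are the durations of the methods, and the discussion states others. DSS colitis is a chemical injury model, and the labels give the tissue as colon, with no segment or layer.

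Goblet cells descend from crypt stem cells. Atoh1 commits a progenitor to the secretory lineage, where Notch signalling is low, and Spdef then drives goblet cell maturation. The mature cell folds Muc2 in the endoplasmic reticulum with the help of Agr2, adds O-linked glycans in the Golgi, and stores it in granules with Clca1, Fcgbp, Zg16 and Tff3. The secreted Muc2 network forms the mucus that keeps bacteria off the colon surface.

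All 10 genes passed the filter on low counts, among 17658 genes tested, and 9 of them had at least 10 counts in every library. Ang4 did not, with 7 counts in Con 1 (replicate 1 of Con). None shares an exon with another annotated gene. Stretches of 50 bases that also occur in other genes make up 6.42% of Fcgbp and 4.70% of Ang4, so a part of their reads could have been counted elsewhere. Levels are CPM (counts scaled to a fixed library size with TMM factors). On the scale of CPM per kilobase of annotated exon, the mean level in Con was highest for Agr2 (1374), then Spink4 (1241), Zg16 (952), Tff3 (668), Muc2 (619) and Clca1 (239.6), and much lower for Fcgbp (76.7), Spdef (55.1), Atoh1 (39.6) and Ang4 (33.6). The spread within Con was wide, with a coefficient of variation from 13.7% for Atoh1 to 123% for Ang4, and the Con libraries of neighbours in this order overlapped, other than those of Clca1 and Fcgbp.

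Total counts ran from 15566216 to 19498383 a library. Con 1, DSS 2 and DSS 3 stood apart in ways that touch these genes. The 10 genes together held 0.0800% of the counts in DSS 2 and 0.504% to 1.39% in the other 11 libraries. DSS 2 also had the highest sums of the leukocyte list (968 CPM, against 229 to 434 in the other DSS libraries and 39.8 to 90.4 in Con) and of the neutrophil list (15364 CPM, against 526 and 687 in DSS and at most 1.98 in Con), and the lowest mean of 8 epithelial genes (9.19 on the log2 CPM scale, against 9.46 to 10.46). DSS 3 held 11242 CPM of 5 pancreatic acinar genes, which were at 30.6 to 554 CPM elsewhere. Con 1 is described with the position score below. In whole tissue, fewer goblet cells and less RNA per goblet cell cannot be told apart.

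**Figure D1:**
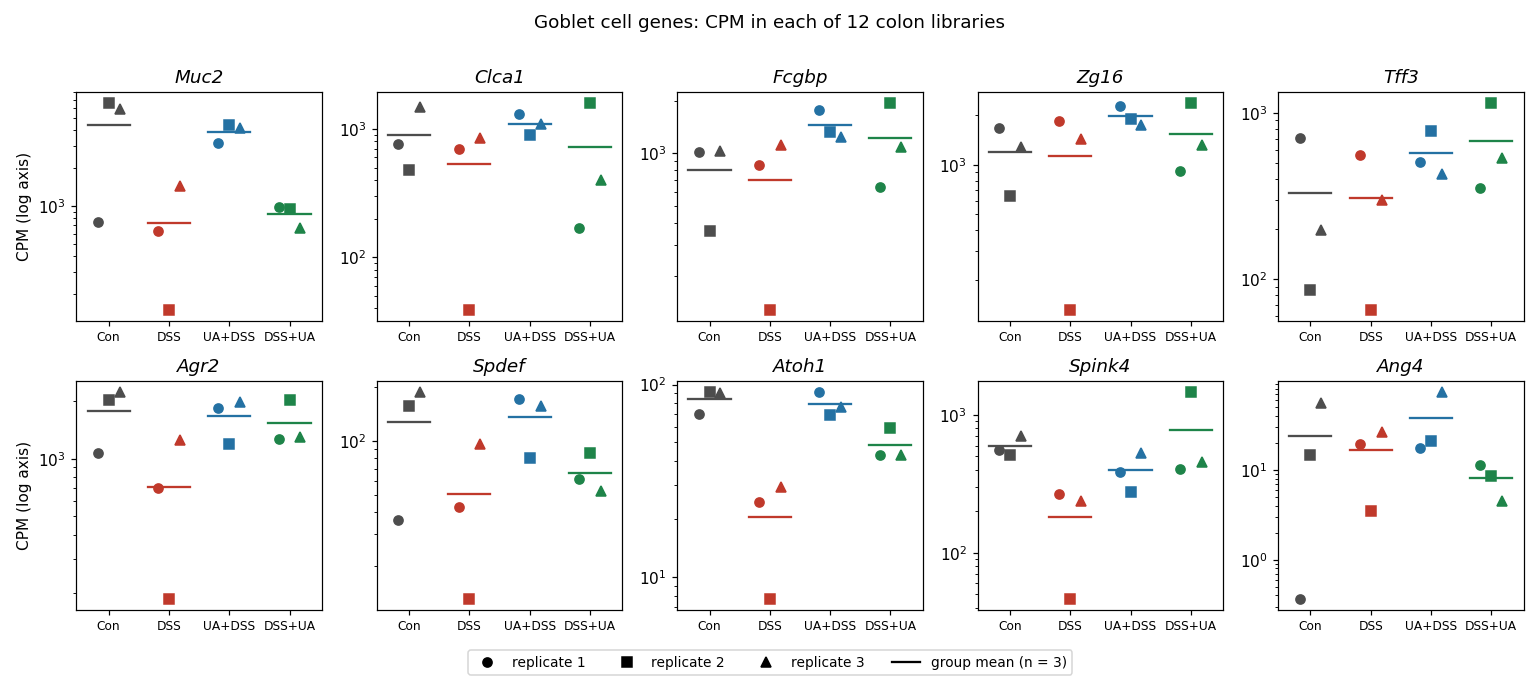
CPM (log axis) of each of the 10 genes in the 12 libraries by group, with the replicate number as the marker shape and the group mean (n = 3) as a line. DSS 2 (red square) is the lowest library in every panel except that of Ang4, where Con 1 is lowest at 0.362 CPM.

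The genes that start and direct the lineage are taken first. Atoh1 (ENSMUSG00000073043, a single-exon gene at chr6:64729125-64731245 on the plus strand of GRCm38) and Spdef (ENSMUSG00000024215, chr17:27714352-27728955, minus strand) encode its transcription factors, and Muc2 (ENSMUSG00000025515, chr7:141690340-141754693, plus strand) its main product. The 250 bases upstream of their starts are shown because edgeR's fit of all 12 libraries called Atoh1 and Muc2 and no other of the 10 genes, and because Spdef had a pattern over libraries close to that of Muc2. They come from RefSeq on GRCm38.p6, which matched 6 of the 10 genes, at chr7:141690090-141690339 for Muc2, chr6:64728875-64729124 for Atoh1 and chr17:27728952-27729201 for Spdef, each read 5′ to 3′ on the gene's strand. Capitals mark the motifs searched for on both strands: CAGCTG and CAGATG (E-boxes of the kind Atoh1 can bind), CCGGAT (an ETS core that Spdef prefers), ACGTG (the core bound by Xbp1 and Creb3 family factors), TTTATG (Cdx2-like) and TATAAA.
Muc2: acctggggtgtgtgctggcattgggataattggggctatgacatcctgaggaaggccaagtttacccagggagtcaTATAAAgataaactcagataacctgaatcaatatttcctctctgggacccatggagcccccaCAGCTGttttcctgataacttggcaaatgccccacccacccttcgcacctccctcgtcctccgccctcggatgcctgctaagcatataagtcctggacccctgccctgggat
Atoh1: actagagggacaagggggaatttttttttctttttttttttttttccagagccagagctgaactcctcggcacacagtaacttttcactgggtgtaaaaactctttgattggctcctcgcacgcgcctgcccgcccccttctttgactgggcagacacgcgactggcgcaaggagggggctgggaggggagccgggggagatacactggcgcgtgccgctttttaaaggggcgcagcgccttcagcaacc
Spdef: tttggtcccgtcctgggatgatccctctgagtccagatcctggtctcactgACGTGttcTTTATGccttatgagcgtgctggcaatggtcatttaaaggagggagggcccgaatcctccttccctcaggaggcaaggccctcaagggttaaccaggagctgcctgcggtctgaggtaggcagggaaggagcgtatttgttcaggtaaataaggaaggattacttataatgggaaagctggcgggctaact

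The Muc2 window held CAGCTG at 112 bases and TATAAA at 174 bases upstream of the start. The Spdef window held ACGTG at 199 and TTTATG at 191 bases, and the Atoh1 window held none of the 6. Of the other matched genes, Fcgbp held CAGCTG, Ang4 CAGATG and Agr2 TTTATG. Among all 32851 windows of this length, CAGCTG occurred in 13%, CAGATG in 14.4%, CCGGAT in 4.94%, ACGTG in 16.6%, TTTATG in 10.8% and TATAAA in 12.4%. These are matches of letters and no measure of binding.

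Atoh1 fell with DSS, and had the smallest standard error of the 10 genes in all 6 comparisons. It stood at 70.7, 91.0 and 90.3 CPM in Con, at 24.7, 7.66 and 29.3 in DSS, at 91.8, 69.4 and 76.7 in UA+DSS, and at 43.0, 59.1 and 42.9 in DSS+UA. Every DSS library lay below every library of the other groups, and those of DSS+UA lay between DSS and the rest. In DSS against Con its log2 fold change was -2.03 (SE 0.39, edgeR adjusted p = 0.00536), a 4.09-fold fall that was called in 22 of 22 alternative settings. It rose by 1.95 (SE 0.38, adjusted p = 0.0124) in UA+DSS against DSS, and this was called in 20 of the 22. It was lost without UA+DSS 2 (2.04, adjusted p = 0.0544) and with the position score as a covariate (1.69, adjusted p = 0.158), settings in which the calls over all tested genes in this comparison went from 3300 to 183 and to 3. Without DSS 2 both held, at -1.64 (adjusted p = 0.00141) and 1.55 (adjusted p = 0.00614). The value in DSS+UA against DSS was 1.23 (SE 0.38, adjusted p = 0.0649), short of the threshold by edgeR and past it by DESeq2 (adjusted p = 0.0156), with groups that did not overlap. UA+DSS and Con differed by -0.08, with a 95% interval of -0.90 to 0.73.

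Scaling the libraries to equal levels of the 8 epithelial genes shifted the median of all genes by 0.55 in DSS against Con, -0.62 in UA+DSS against DSS and -0.76 in DSS+UA against DSS. On that scale the Atoh1 values were -1.56 (adjusted p = 0.00480) in the first and 1.44 (adjusted p = 0.00924) in the second, and 0.55 (adjusted p = 0.175) in the third.

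Spdef followed another order. It was at 35.9, 157 and 188 CPM in Con, 43.0, 13.02 and 95.6 in DSS, 171, 79.9 and 156 in UA+DSS, and 61.0, 85.7 and 52.1 in DSS+UA. Con 1 lay within the DSS range, far below Con 2 and Con 3, so the groups overlapped. Its log2 fold change was -1.33 (SE 0.70, adjusted p = 0.176) in DSS against Con and 1.42 (SE 0.70, adjusted p = 0.177) in UA+DSS against DSS, and neither passed.

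Muc2 encodes the gel-forming mucin itself. It stood at 741, 6633 and 5869 CPM in Con, 631, 147 and 1431 in DSS, 3155, 4384 and 4134 in UA+DSS, and 975, 937 and 662 in DSS+UA. The 3 UA+DSS libraries all lay above all DSS and DSS+UA libraries, and within Con the first library lay far below the other 2. In DSS against Con its log2 fold change was -2.58 (SE 0.83, adjusted p = 0.0412), which was past the threshold although Con 1 lay within the DSS range. This call held in 8 of 22 settings: it was lost in 10 of the 12 fits that left out a library, including those without DSS 2 (-2.09, adjusted p = 0.0742), without Con 2 (-2.16, adjusted p = 0.119) and without Con 3 (-2.33, adjusted p = 0.0904). The value in UA+DSS against DSS was 2.40 (SE 0.82, adjusted p = 0.0635), past the threshold by DESeq2 (adjusted p = 0.00635) and limma-voom (adjusted p = 0.0433). By edgeR this value also passed without DSS 3 (3.32, adjusted p = 0.0302) and without Con 1 (2.40, adjusted p = 0.0259), which made 4 of the 22 settings. For DSS+UA against DSS it was 0.22, with a 95% interval of -1.50 to 1.94.

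Across the 10 genes, 2 were called lower and none higher in DSS against Con, where 12.6% of all tested genes were lower and 13.9% higher. All 10 values were below 0, with a median log2 fold change of -1.04 beside -0.03 over all genes, and 4 had an unadjusted p under 0.05. Without DSS 2 the count called lower was 1, and Fcgbp, Zg16 and Tff3 had values above 0 (0.29, 0.45 and 0.37). Without DSS 3, the library with the pancreatic genes, 3 were called lower. The fits without DSS 2 and without DSS 3 called 19.2% and 23.4% of all genes in either direction. In UA+DSS against DSS, Atoh1 was called higher and none lower, against 8.21% and 10.5% of all genes, and the median was 1.15 beside -0.02. In DSS+UA against DSS edgeR called none of the 10, against 2.54% higher and 5% lower over all genes, while 2 had an unadjusted p under 0.05. DESeq2 called 2 of the 10 there, Atoh1 and Spink4, and 17.7% of all genes. On the epithelial scale the medians of the 10 genes were -0.65 in DSS against Con, where Fcgbp (0.13), Zg16 (0.30) and Tff3 (0.26) were above 0, 0.61 in UA+DSS against DSS, and -0.07 in DSS+UA against DSS, where 5 of the 10 were above 0. These 3 comparisons share the DSS libraries, and the last 2 are therefore not independent of the first.

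**Figure D2:**
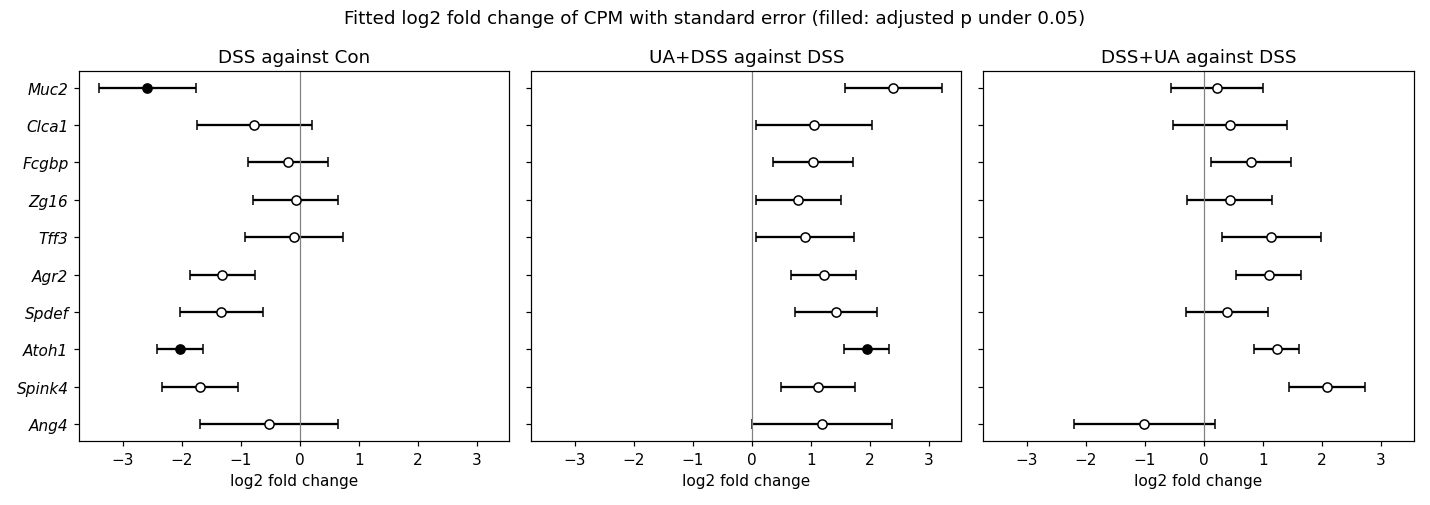
Fitted log2 fold change of each gene in the 3 comparisons with DSS, with its standard error as the bar (3 libraries a group) and a filled point where the adjusted p was under 0.05. Filled points are Muc2 and Atoh1 in DSS against Con and Atoh1 in UA+DSS against DSS.

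The other comparisons called none of the 10 by edgeR. In UA+DSS against Con, 0.00566% of all genes were called higher and 0% lower, and none of the 10 had an unadjusted p under 0.05 or was called by DESeq2 or limma-voom. The intervals there were wide, for example -1.90 to 1.54 for Muc2 (log2 fold change -0.18). In DSS+UA against Con, 9.13% of all genes were higher and 8.95% lower, and the value of Muc2 was -2.36 (SE 0.82, adjusted p = 0.0674, and 0.00740 by DESeq2), the 1 member with an unadjusted p under 0.05. In UA+DSS against DSS+UA, 7.54% were higher and 9.23% lower. Muc2 was at 2.18 there (SE 0.81, adjusted p = 0.0873), also the 1 member with an unadjusted p under 0.05. It was the 1 member that DESeq2 called, where DESeq2 called 24.6% of all genes. A fit of these 2 groups alone called 4 (Muc2, Spdef, Atoh1 and Ang4) and 26.1% of all genes it tested, against 16.8% in the fit of 12 libraries. Tested for any difference among the 4 groups, where 35% of all genes were called, Atoh1 (adjusted p = 0.0109) and Muc2 (adjusted p = 0.0433) passed and Spink4 (0.0923) came next.

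Agr2 (ENSMUSG00000020581, chr12:35992907-36004087, plus strand) encodes a disulfide isomerase family protein of the endoplasmic reticulum that Muc2 needs. It was at 1074, 2016 and 2233 CPM in Con, 707, 185 and 1253 in DSS, 1844, 1187 and 1971 in UA+DSS, and 1270.1, 2028 and 1302 in DSS+UA. DSS held the lowest 2 libraries, and DSS 3 lay above Con 1 and UA+DSS 2. The log2 fold change was -1.31 in DSS against Con (SE 0.55, adjusted p = 0.0986) and 1.22 in UA+DSS against DSS (SE 0.55, adjusted p = 0.141). DESeq2 alone among the tools put the first past the threshold (adjusted p = 0.0452). Without DSS 3 both passed by edgeR, at -1.99 (adjusted p = 0.0273) and 1.90 (adjusted p = 0.0370).

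Spink4 (ENSMUSG00000028415, chr4:40920052-40931395, plus strand) encodes a secreted peptide of the Kazal type protease inhibitor family. It was at 552, 515 and 708 CPM in Con, 266, 46.0 and 238 in DSS, 384, 275 and 534 in UA+DSS, and 406, 1474 and 453 in DSS+UA. All DSS libraries lay below all others, and DSS+UA 2 was the highest of the 12. Its log2 fold changes were -1.69 in DSS against Con (SE 0.64, adjusted p = 0.0716) and 2.09 in DSS+UA against DSS (SE 0.65, adjusted p = 0.0675). DESeq2 called both (adjusted p = 0.0188 and 0.00608), and limma-voom the first (adjusted p = 0.0432). The first was called in 3 of the 22 settings and the second in 1. When 1 library was left out, the second ranged from 1.19 to 2.47 and was called in 0 of 12 fits. On the epithelial scale the second was 1.32 (edgeR adjusted p = 0.0784).

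Clca1, Fcgbp, Zg16 and Tff3, stored with the mucin, had no call in the 6 comparisons under any of the 22 settings. The first (ENSMUSG00000028255, chr3:145003817-145032776, minus strand) encodes a metalloprotease that processes Muc2 in the mucus. It ranged from 479 to 1475 CPM in Con, from 38.4 to 852 in DSS, from 897 to 1312 in UA+DSS and from 168 to 1604 in DSS+UA. The UA+DSS libraries lay above those of DSS, with a log2 fold change of 1.05 (SE 0.98, adjusted p = 0.486).

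Fcgbp (ENSMUSG00000047730, chr7:28071236-28120862, plus strand) encodes a large protein bound to the Muc2 network. It ranged from 361 to 1033 CPM in Con, from 127 to 1120.2 in DSS, from 1248 to 1758 in UA+DSS and from 644 to 1947 in DSS+UA. Zg16 (ENSMUSG00000049350, chr7:127050156-127087328, minus strand, with Gm44939 and Gm22747 in its introns) encodes a lectin that binds the wall of Gram-positive bacteria. It was at 1666, 644 and 1280 CPM in Con, 1844, 131 and 1442 in DSS, 2269.5, 1896 and 1736 in UA+DSS, and 919, 2381 and 1324 in DSS+UA. For both genes the UA+DSS libraries lay above all Con libraries. The log2 fold change of that comparison was 0.84 for Fcgbp (95% interval -0.65 to 2.34) and 0.72 for Zg16 (-0.87 to 2.31), and neither passed.

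Tff3 (ENSMUSG00000024029, chr17:31125306-31129646, minus strand) encodes a trefoil peptide of epithelial repair. It was at 705, 85.9 and 198 CPM in Con, 561, 65.0 and 299 in DSS, 509.7, 783 and 429 in UA+DSS, and 354, 1149.9 and 533 in DSS+UA. Con 1, low for Muc2 and Spdef, was the highest Con library for Tff3. Its log2 fold change was -0.10 in DSS against Con (SE 0.83, adjusted p = 0.941), and without Con 1 it was 1.12 (adjusted p = 0.348).

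Ang4 (ENSMUSG00000060615, chr14:51763878-51773590, minus strand) encodes a bactericidal ribonuclease of mouse goblet and Paneth cells. It was at 0.362, 14.5 and 56.5 CPM in Con, 19.4, 3.51 and 26.7 in DSS, 17.5, 21.1 and 74.7 in UA+DSS, and 11.4, 8.60 and 4.55 in DSS+UA. Within Con the libraries spanned the lowest value of all 12 and the second highest. No comparison of Ang4 passed in the fit of all 12 libraries, and DSS+UA was the group with the lowest mean (8.19 ± 3.46 CPM, SD, n = 3).

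Muc2 made up a very different part of the 10 genes' counts in different libraries. Its share was 11.2% in Con 1 and 60.3% and 44.7% in Con 2 and Con 3, between 11.2% and 21.1% in DSS, between 27.4% and 40.2% in UA+DSS and between 8.03% and 20.1% in DSS+UA. Tff3 was 10.6% of them in Con 1 and 0.781% and 1.51% in Con 2 and Con 3. Zg16 was 25.1% in Con 1 and 5.86% and 9.75% in the other Con libraries. The 3 Con libraries therefore differed in which of these genes led, and not only in their sum, which was 6627, 10997 and 13130.0 CPM.

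**Figure D3:**
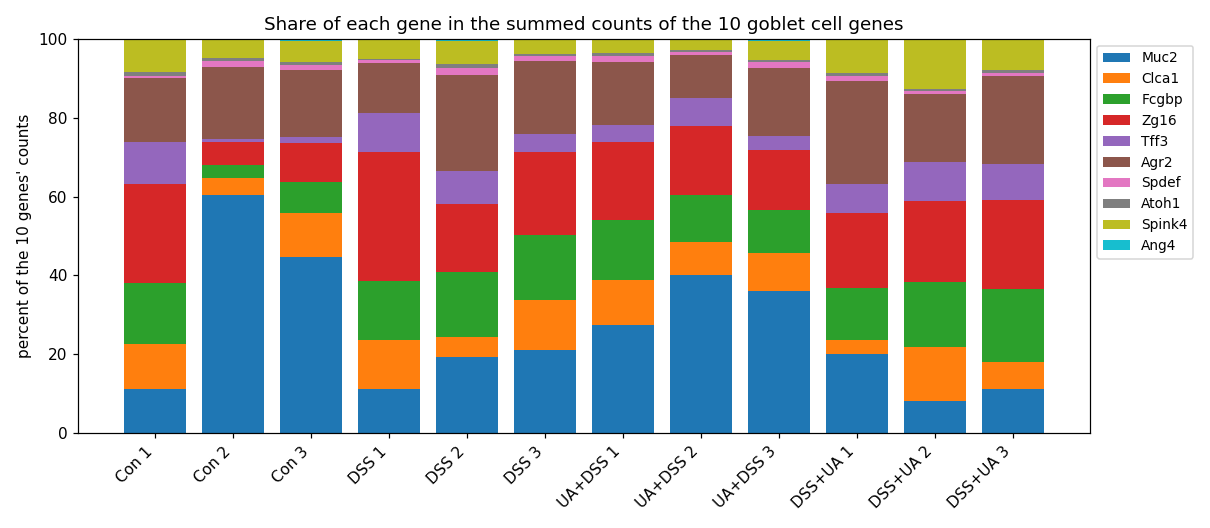
Percent of the summed counts of the 10 genes taken by each gene, 1 bar a library. Muc2 takes 60.3% in Con 2 and 44.7% in Con 3, against 11.2% in Con 1.

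Hox genes keep a record of position along the gut, and a score from them was set beside these levels. It subtracts the average log2 CPM of 6 proximal genes (Hoxb3 to Hoxb8) from that of 5 distal genes (Hoxb13 and Hoxd10 to Hoxd13), so a high score is rectum-like. The score was 5.53, -3.03 and -1.83 in Con, 3.10, 1.35 and 0.37 in DSS, -4.88, -5.70 and -4.16 in UA+DSS, and 4.11, 4.47 and 5.06 in DSS+UA. The 5 libraries with scores below 0 were the 5 with the most Muc2 (3155 to 6633 CPM), and the other 7 held 147 to 1431 CPM. The 4 libraries with the highest scores, Con 1 and the 3 of DSS+UA, had 662 to 975 CPM of Muc2.

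With the score as a covariate, the log2 fold change of Muc2 went from 2.40 to 0.05 (adjusted p = 0.976) in UA+DSS against DSS. In DSS against Con it went from -2.58 to -1.62 (adjusted p = 0.0596), and in DSS+UA against Con from -2.36 to -0.25 (adjusted p = 0.842). In DSS+UA against DSS it went from 0.22 to 1.37. Between UA+DSS and DSS+UA the direction turned, from 2.18 to -1.32 (adjusted p = 0.641), as it did for Spdef (1.03 to -1.44) and Ang4 (2.20 to -3.01), none of which passed either way. Spdef went from 1.42 to -0.21 in UA+DSS against DSS. Over all tested genes the covariate left 3 calls in UA+DSS against DSS and 0 in UA+DSS against DSS+UA, from 3300 and 2961. Atoh1 kept -1.97 (adjusted p = 0.00844) in DSS against Con. The UA+DSS scores lay below those of all other libraries, and the DSS+UA scores above those of all others but Con 1, so treatment and score vary together, and whether the score accounts for the Muc2 values was not tested.

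**Figure D4:**
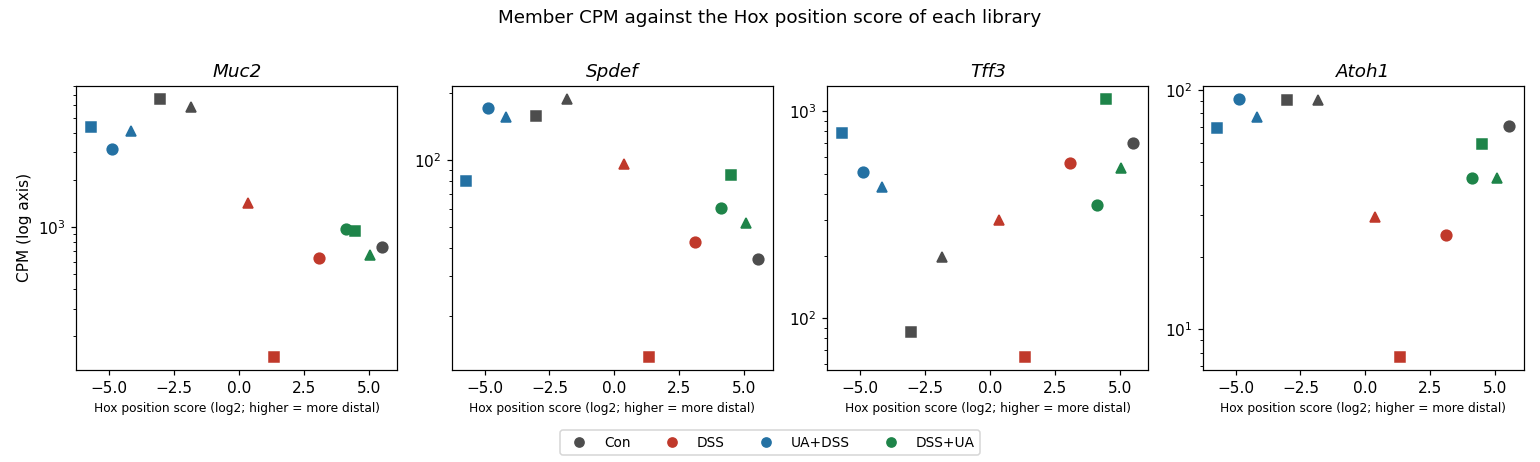
CPM (log axis) of Muc2, Spdef, Tff3 and Atoh1 against the Hox position score, 1 point a library, coloured by group, with replicates 1, 2 and 3 as circle, square and triangle. The 5 libraries with scores below 0 hold 3155 to 6633 CPM of Muc2, while Tff3 is lowest in DSS 2 (65.0 CPM) and Con 2 (85.9 CPM).

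Over the 12 libraries, which fall into 4 groups and share 1 scaling, the 10 genes did not all vary alike. The Pearson correlation of log2 CPM was 0.97 between Zg16 and Fcgbp, 0.86 between Zg16 and Tff3, 0.92 between Muc2 and Spdef and 0.05 between Muc2 and Tff3. After subtraction of each group's mean the same pairs gave 0.97, 0.87, 0.91 and -0.06, and Muc2 with Ang4 gave 0.87. These are descriptions of 12 points, in which DSS 2 is low for nearly every gene.

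The genes outside the 10 whose log2 CPM over the 12 libraries was most like that of Muc2 were Syt7 (r = 0.97), 5330417C22Rik (0.97), Ffar2 (0.97), Klhdc8a (0.97) and Sox13 (0.96). Ffar2, a receptor of short-chain fatty acids, was at 42.3 CPM in Con, 12.7 in DSS, 41.1 in UA+DSS and 16.4 in DSS+UA (means of 3). Most like Atoh1 were Golph3l, Rab27b, Hepacam2, Inpp5j and Sema3b (r = 0.98 each). Golph3l was at 434 CPM in Con, 143 in DSS, 390.1 in UA+DSS and 315 in DSS+UA. Most like Ang4 were Rhbdl3 (0.90), Cpne8 (0.90), Ighv1-64 (0.90), Kdm5c (0.89) and Glg1 (0.89).

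Other genes tied to goblet cells and mucus were read from 6 lists, which are not specific to goblet cells. Slc26a3, in the ion transport list, is also 1 of the absorptive colonocyte markers used below. The part of other epithelial cells in the list results was not tested. The list counts stand beside the shares over all tested genes: 12.6% lower and 13.9% higher in DSS against Con, 10.5% and 8.21% in UA+DSS against DSS, and 5% and 2.54% in DSS+UA against DSS. The 8 epithelial genes had medians of -0.56, 0.62 and 0.79 in these comparisons, the last of them with 3 of 8 called higher, and the part of epithelial content in the list medians was not tested. Among 20 tested regulators of the secretory lineage, 7 fell and 2 rose in DSS against Con, with a median log2 fold change of -0.58 beside -0.03 over all genes. Cbfa2t3, a corepressor gene, fell from 40.5 ± 13.8 to 18.6 ± 4.74 CPM (log2 fold change -1.12, adjusted p = 0.0109), and Hes1, a Notch target that represses Atoh1, fell by 1.22 (adjusted p = 0.0153). Neurog3, which directs the enteroendocrine lineage, rose by 2.14 from a low level (0.747 to 3.31 CPM, adjusted p = 0.0215). Between UA+DSS and DSS 4 rose and none fell, with a median of 0.33. They included Cbfa2t3 (1.58, adjusted p = 0.00934), Gfi1, which keeps goblet cells apart from enteroendocrine cells (1.67, adjusted p = 0.0158), and Creb3l4, a factor of the secretory pathway (13.1 ± 9.79 to 54.2 ± 6.59 CPM, 2.04, adjusted p = 0.0200). Hes6 (0.93) and Elf3 (0.99) rose and Notch1 fell by 1.32 in DSS+UA against DSS (adjusted p = 0.0277, 0.0401 and 0.0212), with a median of 0.67.

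The enzymes that build mucin O-glycans moved in 1 direction where they passed in the 3 comparisons with DSS, but 4 were higher and 4 lower in UA+DSS against DSS+UA. Of 27 tested, 8 fell and none rose in DSS against Con (median -0.81), 9 rose and none fell in UA+DSS against DSS (median 0.80), and 1 rose and none fell in DSS+UA against DSS (median 0.51). Galnt6, which attaches the first sugar to the mucin core, was at 152 ± 11.1 CPM in Con, 80.1 ± 17.4 in DSS and 163 ± 13.4 in UA+DSS (SD, n = 3). It fell by 0.92 with DSS (log2, adjusted p = 0.00682) and rose by 1.02 in UA+DSS against DSS (adjusted p = 0.0107). Gcnt3, which branches the chain, rose from 51.5 ± 42.7 CPM in DSS to 388 ± 95.1 in UA+DSS (2.91, adjusted p = 0.0172). Galnt7 (-1.32) and St3gal6 (-0.99) fell with DSS, Galnt4 rose in UA+DSS against DSS (1.14), and Fut4 rose in DSS+UA against DSS (1.01, adjusted p = 0.0457). St3gal1 (-2.32) and St6galnac6 (1.02) came next in that comparison and did not pass (adjusted p = 0.05001 and 0.0684).

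Folding genes of the endoplasmic reticulum went another way, and most are used by every secreting cell. Of 26 tested, 8 rose and 3 fell in DSS against Con (median 0.27), 2 rose and 4 fell in UA+DSS against DSS (median -0.08), and 1 rose and 1 fell in DSS+UA against DSS (median 0.15). Hspa5, the chaperone BiP, rose from 369 ± 90.5 to 905 ± 109 CPM with DSS (1.30, adjusted p = 0.00544), as did Creld2 (1.43, adjusted p = 0.00117) and the crosslinking enzyme gene Tgm2 (2.46, adjusted p = 0.00282). Creld2 (-0.80) and Manf (-0.69) fell in UA+DSS against DSS, while Agr3, a paralog of Agr2, rose by 3.91 from a level of 0.121 CPM. Between DSS+UA and DSS, Kdelr2 rose by 0.62, Tgm2 fell by 1.41, and Pdia3 was at 0.53 (adjusted p = 0.129). More of this list rose than fell with DSS, where none of the 10 goblet cell genes was called higher, and the leukocyte and neutrophil sums were also higher in DSS. Their part in it was not tested.

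Of 28 genes for granule release and ion transport, 8 fell and 3 rose in DSS against Con (median -0.93), 7 rose and none fell in UA+DSS against DSS (median 0.94), and 2 rose and none fell in DSS+UA against DSS (median 0.42). Nlrp6, an inflammasome sensor that goblet cells use for mucus release, was at 217 ± 77.6 CPM in Con, 81.3 ± 27.4 in DSS, 289.9 ± 39.2 in UA+DSS and 180.3 ± 36.0 in DSS+UA, and passed in all 3 comparisons (-1.42, 1.83 and 1.15, adjusted p = 0.00900, 0.00990 and 0.0478). Rab27b, a granule GTPase gene, fell with DSS (-1.02) and rose in UA+DSS (1.20). Sytl1 fell with DSS (-1.82), Gucy2c, the guanylin receptor gene, rose in UA+DSS (1.37), Lrrc26, a subunit gene of a goblet cell potassium channel, rose in DSS+UA (1.51, adjusted p = 0.0265), and Rep15 was at 1.55 there (adjusted p = 0.0831).

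Of 7 other mucins tested, 4 fell with DSS (median -1.84), 1 rose in UA+DSS and 1 in DSS+UA against DSS (medians 1.54 and 0.74). Most of them are membrane mucins. Muc3 fell from 1982 ± 854 to 553 ± 109 CPM (-1.84, adjusted p = 0.00362) and was at 1293 ± 69.0 in DSS+UA (1.23, adjusted p = 0.0412). Muc3a fell by 2.25 with DSS and rose by 2.17 in UA+DSS. Each passed in a different UA group. Muc3 averaged 875 CPM in UA+DSS, beside 553 in DSS, and Muc3a 27.8 CPM in DSS+UA, beside 23.9 in DSS, and these did not pass. Muc20 fell by 2.72 from 1.69 CPM. Muc4 (1.79) and Muc13 (0.93) in UA+DSS, and Muc13 (1.22) and Muc6 (-1.93) in DSS+UA, did not pass (adjusted p = 0.0605, 0.102, 0.0655 and 0.404).

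Among 27 further genes listed for goblet cells, 10 fell and none rose in DSS against Con (median -1.10), 4 rose and 1 fell in UA+DSS against DSS (median 0.79), and 4 rose and none fell in DSS+UA against DSS (median 0.61). Smim14 fell from 214 ± 24.4 to 93.8 ± 20.5 CPM (-1.19, adjusted p = 0.00283) and rose to 180.1 ± 6.83 in UA+DSS (0.94, adjusted p = 0.0122). Vsig2 (-2.81) and Slc50a1 (-0.98) fell with DSS, and Vsig2 (1.98) and Hepacam2 (2.19) rose in UA+DSS. Fxyd3 (0.98), Smim6 (1.31) and Gsdmc4 (2.10) rose in DSS+UA against DSS (adjusted p = 0.0219, 0.0304 and 0.0473).

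**Figure D5:**
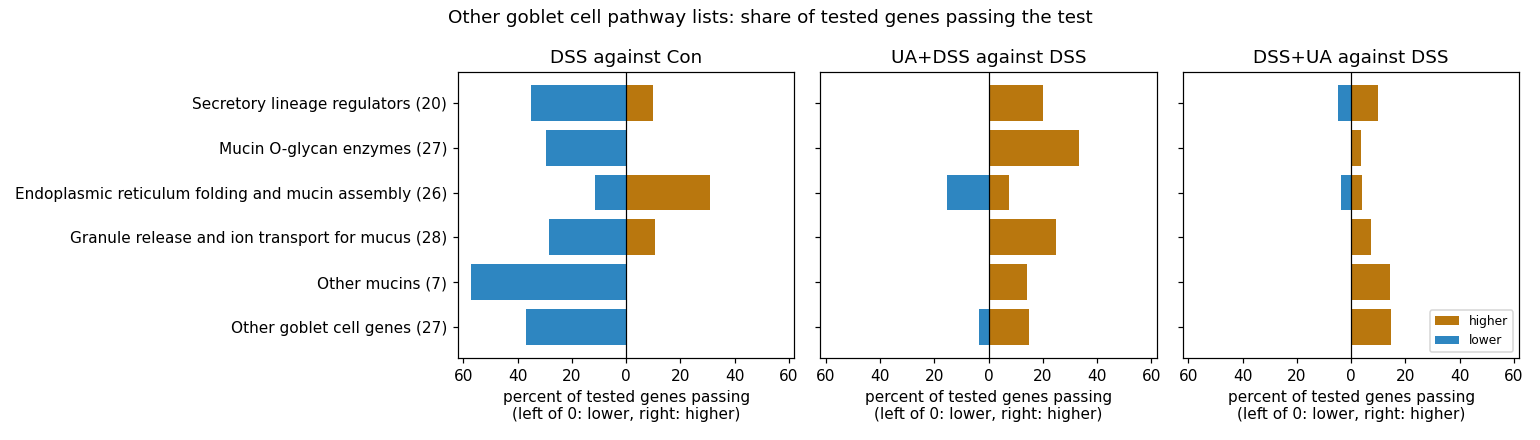
Percent of the tested genes of each list (number tested in parentheses) that passed the test higher (right of 0) or lower (left of 0) in each comparison with DSS. Folding genes are the list with most calls higher in DSS against Con, 8 of 26, while none of the 27 O-glycan enzymes was higher there. Over all tested genes 13.9% were higher and 12.6% lower in DSS against Con.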

How the data were processed

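RNA of 12 colon samples was sequenced by the authors (TruSeq libraries, HiSeq instrument), checked with FastQC and mapped to GRCm38 with HISAT2, per the labels and methods, and Cuffdiff is also listed. Tool versions, strand use and the handling of shared reads were not given in the sources used here. For RNA extraction, Trizol stands in the labels and the RNeasy kit in the methods. The deposited values are raw counts per Ensembl gene. Counts without a gene name in GENCODE M21 (37 genes) made up 0.00364% and were kept in the tests. Groups and replicate numbers came from the labels. That libraries come from separate mice is implied by the methods and not by the labels, so p-values measure the spread between these libraries.

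Counts were filtered with filterByExpr, scaled by TMM factors (0.871 to 1.09) and tested with edgeR 4.0.16 in R 4.3.3 by its robust quasi-likelihood test in 1 fit of 12 libraries, with Benjamini-Hochberg adjustment over 17658 genes and a threshold of 0.05. CPM used the TMM-scaled totals, and log2 CPM a prior count of 2. Intervals are 95% from the fit, and cover these libraries only. No pair of libraries in a group agreed within sampling noise. The fit was tested on simulated data. Motifs were counted and figures drawn in Python 3.11.15 with pandas 2.3.3.

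Members, lists, the position score and the rule for named genes were chosen with earlier results of these data known. The rule takes all members, the 3 smallest p of each list in each comparison with DSS, the first gene of each cell type list and the 5 genes most correlated with Muc2, Atoh1 and Ang4. Of 212 list entries 3 were not matched. The 22 alternatives were 3 scalings, 2 filters, DESeq2 1.42.0, limma-voom (limma 3.58.1), a fit of the 2 groups compared, a replicate block, the position score and 12 fits without 1 library.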

Additional observations from a re-analysis of the deposited data

How the results depend on the processing

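No value of the 10 genes that passed in the edgeR fit of all 12 libraries changed sign under any alternative. Some values that passed only under an alternative did. In UA+DSS against DSS+UA the fit of the 2 groups called Muc2, Spdef and Ang4 higher. With the position score they were at -1.32, -1.44 and -3.01, and did not pass. The percent in parentheses is the share of all tested genes that the same setting called. In DSS against Con, 2 genes were called (26.5%), against 4 by DESeq2 (32.3%) and 3 by limma-voom (26.1%). Without the filter 1 was called (11.6%), as in the fit of the 2 groups compared (12.6%), with the replicate block (24.8%) and with the position score (30.5%). The count was 1 to 3 when 1 library was left out (15.8% to 25.7%). For UA+DSS against DSS, 1 gene was called (18.7%), against 2 by DESeq2 (25.5%) and by limma-voom (17.5%). It was 0 with the position score (0.017%), and 0 to 3 when 1 library was left out (1% to 22.7%). For DSS+UA against DSS none was called (7.54%), against 2 by DESeq2 (17.7%), 1 by limma-voom (6.52%) and 0 to 1 without 1 library (0.137% to 10.1%). For DSS+UA against Con none was called (18.1%), against 1 by DESeq2 (26.4%) and 1 in the fit of the 2 groups (12.3%), and 0 to 2 without 1 library (5.81% to 22.4%). In UA+DSS against DSS+UA none was called (16.8%), against 1 by DESeq2 (24.6%), 4 in the fit of the 2 groups (26.1%) and 0 to 2 without 1 library (3.07% to 21.5%). In UA+DSS against Con all alternatives gave 0 (at most 2.13%, by DESeq2). For any difference among the 4 groups 2 genes were called (35%), against 3 by DESeq2 (48.5%). The count was 1 without the filter (16%), by limma-voom (32%), with the replicate block (31.3%) and with the position score (22%), and 1 to 2 without 1 library (20.3% to 34.8%). Calls over all genes moved too: in UA+DSS against DSS from 3300 to 4497 by DESeq2, 3 with the position score and 183 without UA+DSS 2. In DSS against Con they were 4688, 5712 by DESeq2 and 2131 in the fit of the 2 groups. The causes were not tested. The fit of 2 groups cannot be made for the 4-group test.

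No pairing of samples by replicate number was seen. The 18 same-numbered pairs had correlations of -0.22 to 0.19, 5 of them over 0.1, and other pairs -0.29 to 0.24. Of 12 libraries, 5 were nearest to their own number. With 3 libraries a group, this check cannot tell whether libraries of 1 number share a batch. With the replicate block the calls among the 10 genes moved from 2 to 1 in DSS against Con and in the 4-group test, and in no other comparison. With library size alone as the scaling, the median of all genes moved by at most 0.13 in size. With 3 libraries a group and the spread of most of these genes, many values here have intervals that include both 0 and a 2-fold change.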

Other observations

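Other epithelial and tissue cell types were read from marker lists. Absorptive colonocyte genes summed to 2800.1 to 10645 CPM in Con, 757 to 3929 in DSS, 8198 to 14282 in UA+DSS and 1799 to 3405 in DSS+UA, and the carbonic anhydrase gene Car1, their first marker, averaged 2118, 797, 6827 and 759 CPM. The UA+DSS sums lay above those of DSS and DSS+UA, as Muc2 did, but Car1 was most of them (6827 of 11181 CPM on average). Of the 7 genes, 2 were called higher in UA+DSS against DSS (median log2 fold change 1.22), beside 8.21% of all genes. In UA+DSS against DSS+UA 2 were higher (median 0.53), beside 7.54%. In UA+DSS against Con none of them was called, and the median was -0.46. Enteroendocrine genes, of the lineage that shares the Atoh1 step, summed to 269 to 429 CPM in Con, 229 to 510.5 in DSS, 376 to 575 in UA+DSS and 341 to 411 in DSS+UA. Chga averaged 71.7, 55.7, 129 and 58.0 CPM in these groups. Tuft cell genes summed to 14.7 to 46.4 CPM in Con, 22.3 to 29.5 in DSS, 22.7 to 29.4 in UA+DSS and 7.30 to 10.5 in DSS+UA, with Dclk1 at 8.0 CPM in DSS+UA and 17.4 to 24.8 CPM in the other groups on average. In DSS, Dclk1 was most of that sum (24.8 of 26.6 CPM on average), so the sum says little about the other tuft genes. Of 3 tuft genes tested, 2 were lower in DSS against Con (median log2 fold change -2.20), beside 12.6% of all genes. In UA+DSS against DSS 2 were higher (median 2.31), beside 8.21%, and in DSS+UA against DSS 1 was lower, beside 5%.

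Deep crypt secretory genes, which include Reg4, summed to 803 to 992 CPM in Con and 476 to 539 in DSS, with no overlap, and to 726 to 761 in UA+DSS and 649 to 788 in DSS+UA. Of the 3 genes, 1 was called lower in DSS against Con, beside 12.6% of all genes. Reg4 itself overlapped, at 590, 21.9 and 23.2 CPM in Con and 235, 34.2 and 84.6 in DSS. Crypt base stem cell genes summed to 224 to 310.0 CPM in Con and 127 to 246 in DSS, and Lgr5 averaged 11.5 and 2.12 CPM. Small intestinal Paneth genes, a check for Ang4, summed to 1.997 to 14.4 CPM in Con and 4.97 to 61.9 in DSS, with Lyz1 at means of 5.65 and 19.1. They summed to 8.24 to 11.9 CPM in UA+DSS, where mean Ang4 was highest (37.8 CPM), and to 8.79 to 50.3 in DSS+UA, where it was lowest (8.19 CPM). Lyz1 averaged 1.91 and 16.1 CPM in these groups. Smooth muscle genes ranged from 273 CPM in DSS+UA to 2749.9 in Con, and Myh11 averaged 521 CPM in Con and 125 in DSS+UA. The first markers of the remaining lists averaged 1887 CPM in Con and 990.2 in DSS for Epcam (1804 in UA+DSS and 1849 in DSS+UA), 29.9 and 267 for Ptprc, 0.144 and 2453 for S100a8, and 284 and 743 for Cela1. The DSS mean of Cela1 came from DSS 3 (2124 CPM, against 76.9 in DSS 1 and 28.2 in DSS 2). That of S100a8 came mostly from DSS 2 (6821 CPM, against 221 in DSS 1 and 317 in DSS 3). Hoxb13 averaged 235 CPM in Con, 128 in DSS, 4.54 in UA+DSS and 413 in DSS+UA, and Hoxb3 averaged 1.35, 0.752, 8.02 and 0.492.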
